A study of Rattus norvegicus with 12 samples.

Results

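The genes of redox defence and glutathione use were examined in rat lumbar dorsal root ganglia (DRG), the clusters of sensory nerve cell bodies beside the spinal cord. Members were chosen by gene symbol alone, namely the families of glutathione peroxidases, glutathione transferases, peroxiredoxins, thioredoxins, glutaredoxins, superoxide dismutases, heme oxygenases, quinone reductases, NADPH oxidases, nitric oxide synthases and metallothioneins, with catalase, the glutathione synthesis enzymes and the regulators Nfe2l2 and Keap1. Of 8260 core probesets, each a transcript cluster backed by full-length mRNAs, 60 carried exactly 1 symbol of these families, for 60 genes. By its symbol, Glrx-ps4 among them is a pseudogene. A further 5 probesets shared by several glutathione transferase genes were left out. Fth1, Ftl1, Tf, Tfrc, Cyba, Nos1, Mt1, Mt2 and Srxn1 were not analysed here.

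The study asked which genes change when the ganglion itself is inflamed, and measured RNA with Affymetrix Rat Exon ST 1.0 arrays, 1 per animal, each from a single L5 ganglion of an adult male Sprague Dawley rat on day 3 after surgery. The 6 rats with local inflammation of the DRG (LID) were given the immune activator zymosan, made from yeast cell walls, onto the L5 ganglion of 1 side, in a volume of 10 µl at 2 mg/ml with incomplete Freund's adjuvant as its carrier. The 6 sham rats had the same incision and exposure of the foramen, without an injection, so the oil adjuvant and the zymosan cannot be told apart. Values are log2 signals from which the median of the 12 arrays has been subtracted for each probeset, so 0 is the middle of the 12 arrays and no level of expression is left. For that reason the tissue could not be checked against its markers by level, genes cannot be ranked by abundance, and signal over background is unknown.

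Cells keep reactive oxygen in check with enzymes that act in sequence. Superoxide dismutases turn superoxide into hydrogen peroxide, and catalase, glutathione peroxidases and peroxiredoxins remove the peroxide, drawing their electrons from glutathione or thioredoxin, which NADPH-dependent reductases recycle. Many of these genes are under the transcription factor NRF2 (Nfe2l2), which KEAP1 holds back until electrophiles or oxidants release it, and which binds a short DNA sequence called the antioxidant response element. Leukocytes that enter inflamed tissue bring oxidant sources of their own, the phagocyte NADPH oxidase and the inducible nitric oxide synthase (Nos2).

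The promoters of the genes that moved are shown first for this element. The sequence TGACNNNGC, the core of the antioxidant response element, was sought on both strands in the RefSeq windows of the GRCr8 assembly that run from 250 bases before to 50 bases after each gene's start. It overlaps the AP-1 sequence TGACTCA where its 3 free bases are TCA. A window was at hand for 50 of the 60 genes, and 13 of them (26.0%) held the sequence, against 3602 of 27457 windows of all genes (13.1%). Among the 12 genes that passed the test below, 8 had a window and 5 of these (62.5%) held the sequence. Among the 48 that did not pass, 42 had a window and 8 of these (19.0%) held it. This split was not made for the other genes of the array, and elements outside the windows were not sought. These shares are descriptions, since the motif was chosen with results of these data known, and a match is not a binding site. The 5 matches in genes that passed are printed 5′ to 3′ on the gene's strand with the match in capitals; read on the gene's strand it is reversed (GCNNNGTCA) in all but Gstm7, and none of the 5 holds TGACTCA.
Sod2 at chr1:50050185-50050213, minus strand: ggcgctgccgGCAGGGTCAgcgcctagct
Txnrd1 at chr7:22755964-22755992, minus strand: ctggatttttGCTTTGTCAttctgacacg
Gclm at chr2:213031953-213031981, plus strand: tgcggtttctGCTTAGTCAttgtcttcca
Gstm7 at chr2:198260315-198260343, minus strand: gaggctagatTGACACAGCctgtccgttc
Hmox2 at chr10:11337689-11337717, minus strand: gtcttggaagGCAGTGTCAgcttggccag

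Some arrays stood apart and gave many of the extreme values. Among the 60 members, sham replicate 2 held the highest or the lowest of the 12 values in 21 (14 highest, 7 lowest), LID replicate 2 in 19 (3 highest, 16 lowest) and sham replicate 6 in 19 (17 highest, 2 lowest), while LID replicate 5 held 2. Over all probesets the array medians lay between -0.04 and 0.09, with sham replicate 2 highest. The median SD within groups was 0.125 for the members and likewise 0.125 for all probesets. Counts with arrays left out are given below, and for single genes only some such values are given.

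The 5 genes with the sequence moved in opposite directions: Sod2 and Txnrd1 were higher in LID ganglia, and Gclm, Gstm7 and Hmox2 were lower. LID was compared with sham for every probeset with limma, a linear model that moderates the variance of each probeset, followed by Benjamini-Hochberg adjustment across the 8260 probesets. A gene is said to have risen or fallen where the adjusted p was under 0.05. By this test 12 of the 60 members changed (20.0%), against 19.4% of all probesets. The 4 that rose (6.67%, against 7.66% of all probesets) were Nos2, Sod2, Prdx6 and Txnrd1, and the 8 that fell (13.3%, against 11.7%) were Gstm7, Gclm, Hmox2, Txn2, Sod3, Txndc9, Gstt1 and Gsto1. Without sham replicate 3, and likewise without sham replicate 4, 5 members fell. Nos2 alone passed 1.5-fold (1.67% of members, against 2.99% of all probesets), so the share of members that moved was near that of the whole array and most of their changes were small. At an unadjusted p under 0.05 stood 23 of the 60 members and 2472 of the 8260 probesets. The median log2 fold change was -0.06 over the 60 members and -0.02 over all probesets, with 21 members above 0 and 39 below it (65.0%, against 58.0% of all probesets below it). The 6 LID values lay wholly apart from the 6 sham values in 5 members (8.33%), namely Sod2, Prdx6, Txnrd1, Txn2 and Gstt1, against 10.0% of all probesets.

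**Figure D1:**
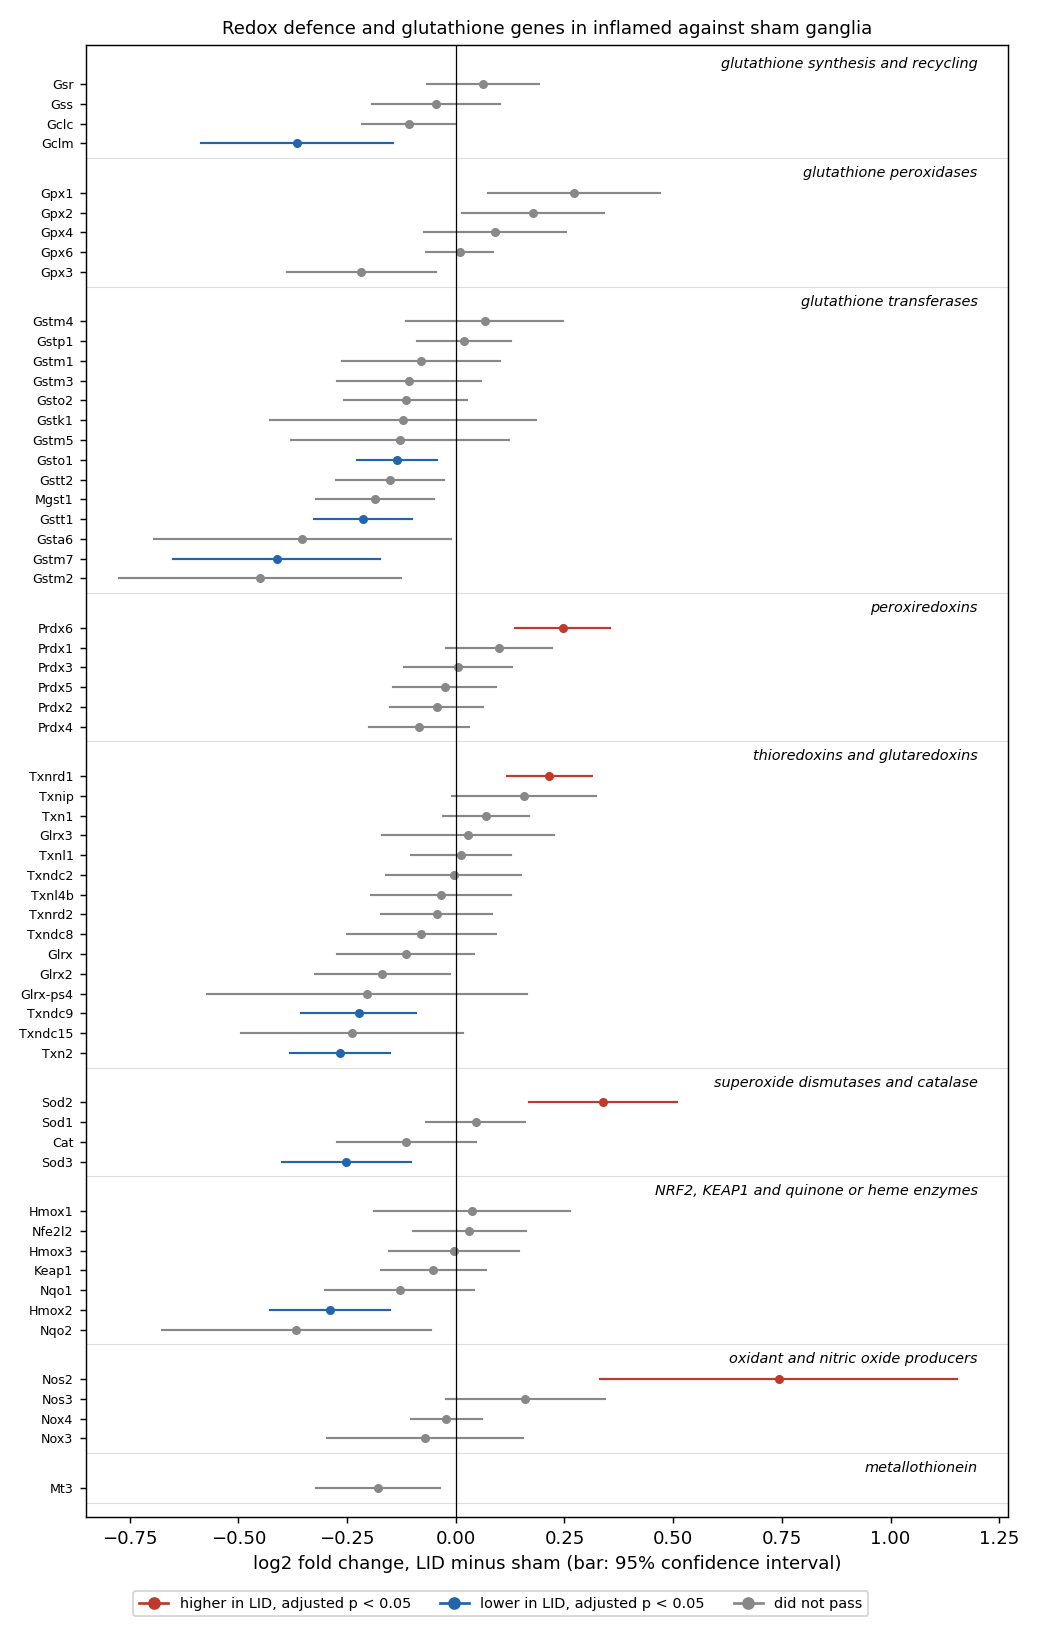
Log2 fold change of each of the 60 members in LID against sham ganglia (LID minus sham), grouped by role, with points for the estimate and bars for the 95% confidence interval. Red marks the 4 members higher in LID and blue the 8 lower in LID at an adjusted p under 0.05, with Nos2 at 0.74 furthest to the right.

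Of the 4 members that produce oxidants or nitric oxide, Nos2 rose in the inflamed ganglia and the other 3 did not pass the test. Among 11 related oxidant-producing genes given below, 4 rose, Cybb of the phagocyte NADPH oxidase included, and 0 fell. Of all probesets 7.66% rose and 11.7% fell. Nos2, which makes nitric oxide in activated macrophages, stood at -0.057, 1.25, 0.80, 0.79, 0.10 and 0.28 in LID replicates 1 to 6, against -0.074, 0.057, -0.31, -0.35, -0.32 and -0.31 in sham replicates 1 to 6. Of the 6 LID ganglia 5 lay above every sham ganglion, LID replicate 1 lay among the sham values, and 3 LID ganglia lay far above the other 3. The increase was 1.67-fold (95% interval 1.26 to 2.22, log2 fold change 0.74 ± 0.19 SE, adjusted p = 0.0149). Nos3, the synthase of endothelium, differed by 0.16 ± 0.08 SE without passing (adjusted p = 0.233). It passed in 3 of 20 other settings, 1 of them without sham replicate 2. Nox4, a constitutively active oxidase, differed by -0.02, and Nox3, known from the inner ear, by -0.07, neither past the test.

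Among the enzymes that dispose of superoxide, the mitochondrial form rose, the extracellular form fell and the cytosolic form did not pass. Sod2, the manganese enzyme of the mitochondrial matrix, ran from 0.0012 to 0.46 with a median of 0.13 in LID ganglia, against -0.32 to -0.0012 with a median of -0.15 in sham ganglia. The groups did not overlap, but the lowest LID and the highest sham ganglion nearly touched. Sod2 was 1.26-fold higher in LID (95% interval 1.12 to 1.42, log2 fold change 0.34 ± 0.08 SE, adjusted p = 0.00874). Sod3, which is secreted and binds the extracellular matrix, ran from -0.31 to 0.003 with a median of -0.12 in LID ganglia, against -0.0037 to 0.30 with a median of 0.11 in sham ganglia. Only the edges of the groups overlapped. Sod3 fell by 0.25 ± 0.07 SE on the log2 scale (adjusted p = 0.0215), a call lost without sham replicate 4 (adjusted p = 0.051). Sod1, the cytosolic copper and zinc enzyme, differed by 0.05 ± 0.05 SE (adjusted p = 0.647), and catalase (Cat), which breaks down hydrogen peroxide in peroxisomes, by -0.11 ± 0.07 SE (adjusted p = 0.358).

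The difference between Sod2 and its relatives was tested directly. For each pair of members with a common symbol stem, 61 pairs in 15 families, the difference between the 2 genes was taken on each array and compared between groups by an exact two-sided permutation test over all 924 assignments of arrays, adjusted over the 61 pairs. Such a test asks whether 2 genes responded differently, not which is more abundant, and the smallest p it can give is 0.00216. The log2 fold change of Sod1 minus that of Sod2 was -0.29 ± 0.08 SE, and that of Sod2 minus that of Sod3 was 0.59 ± 0.11 SE (exact p = 0.00216, adjusted p = 0.0264 for each). Sod1 and Sod3 were not told apart (difference 0.30, exact test, adjusted p = 0.0692). In all, 13 pairs in 7 families passed and 25 had an unadjusted p under 0.05. Leaving out LID replicate 2 left 0 of the 61 pairs past the threshold (smallest adjusted p 0.0528), as did leaving out both replicates 2 (0 pairs, smallest adjusted p 0.0605). Without LID replicate 5 and without sham replicate 5, 8 pairs each passed. The 13 pairs kept their sign in all 14 settings run, and all 13 had an unadjusted exact p under 0.05 without LID replicate 2 and also without both replicates 2.

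**Figure D2:**
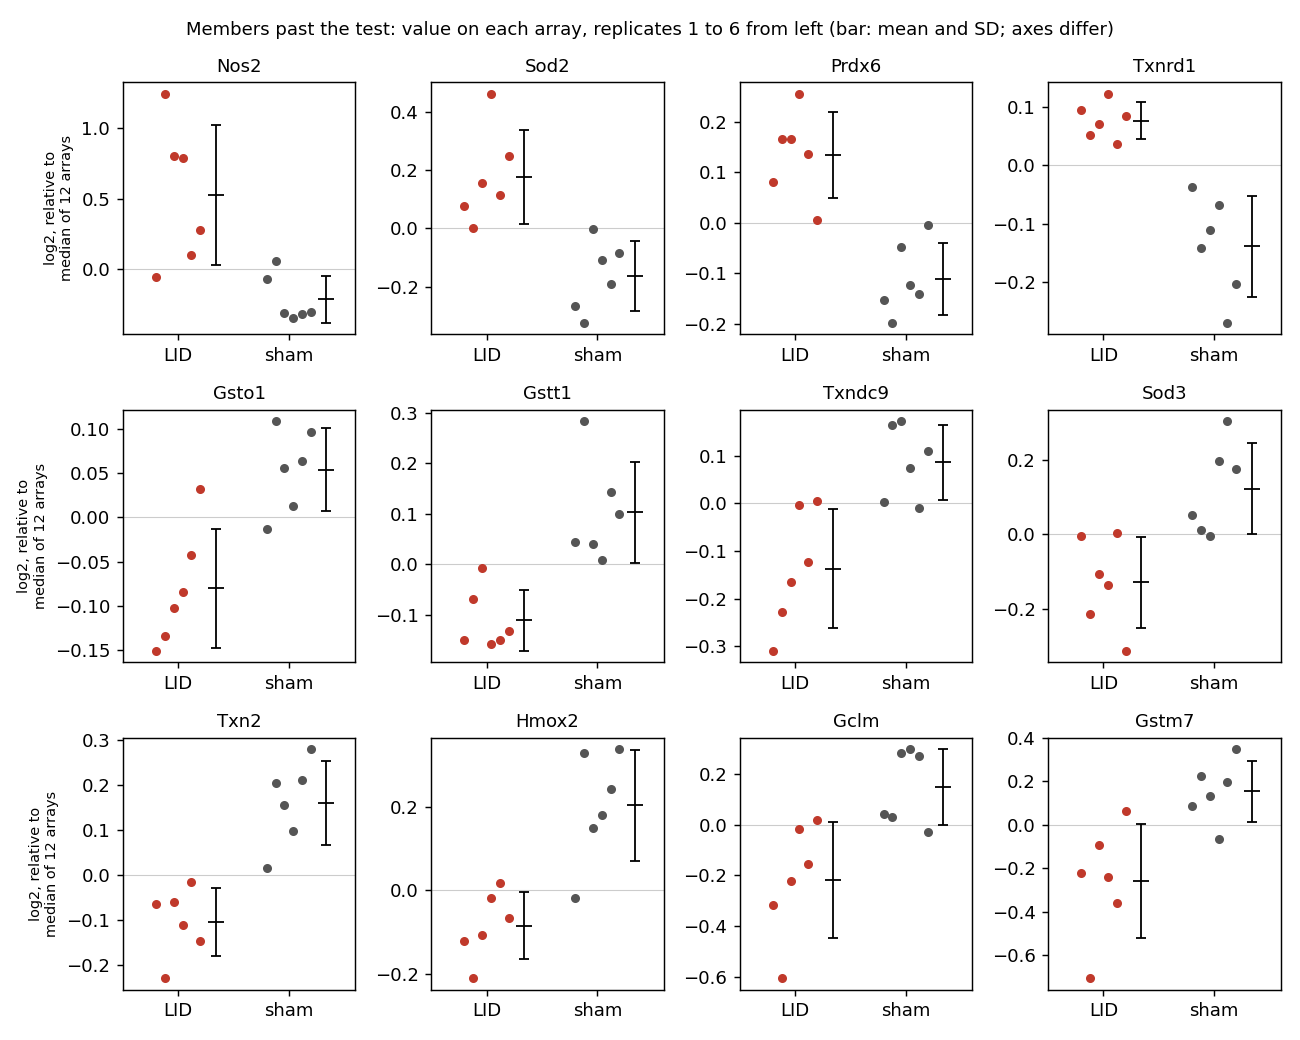
Value of each of the 12 members past the test on every array (log2, with the median over 12 arrays set to 0), LID on the left in red and sham on the right in gray, with a bar for the mean and SD of 6 arrays. The 4 genes higher in LID come first, Sod2, Prdx6 and Txnrd1 have no overlap between groups, and for Nos2 LID replicate 1 lies among the sham values.

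Of the peroxide-removing peroxiredoxins, Prdx6 rose and the other 5 did not pass. Prdx6, which reduces phospholipid hydroperoxides with glutathione and also has phospholipase activity, ran from 0.0042 to 0.26 with a median of 0.15 in LID ganglia, against -0.20 to -0.0042 with a median of -0.13 in sham ganglia. Every LID ganglion was above every sham ganglion, with LID replicate 6 and sham replicate 6 closest to each other. The increase was 1.19-fold (95% interval 1.10 to 1.28, log2 fold change 0.25 ± 0.05 SE, adjusted p = 0.00444). The thioredoxin-dependent Prdx1, Prdx2, Prdx3, Prdx4 and Prdx5 differed by -0.08 to 0.10, none past the test. The log2 fold change minus that of Prdx6 was -0.29 for Prdx2, -0.33 for Prdx4 and -0.27 for Prdx5 (exact permutation test, adjusted p = 0.033 for each). The mitochondrial Prdx3 (adjusted p = 0.0528) and the cytosolic Prdx1 (adjusted p = 0.174) were not told apart from Prdx6 by the same exact test.

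None of the 5 glutathione peroxidases passed the test. In the same limma fit 3 of the 5 had an unadjusted p under 0.05, as did 2472 of the 8260 probesets. No test was made of this share. Gpx1, the cytosolic selenoenzyme that reduces hydrogen peroxide, ran from -0.12 to 0.24 with a median of 0.05 in LID ganglia, against -0.52 to 0.076 with a median of -0.21 in sham ganglia. It differed by 0.27 ± 0.09 SE (adjusted p = 0.0535), just short of the threshold, and passed under 8 of 20 other settings. Gpx3, the peroxidase secreted into plasma, differed the other way, by -0.22 ± 0.08 SE (adjusted p = 0.0776), from -0.19 to 0.11 in LID ganglia, against -0.032 to 0.43 in sham ganglia. The difference between these 2 responses did pass: the log2 fold change of Gpx1 minus that of Gpx3 was 0.49 (exact permutation test, adjusted p = 0.033). Gpx2, known from the gut lining, likewise stood apart from Gpx3 by 0.40 (exact permutation test, adjusted p = 0.0406). By itself Gpx2 passed in 2 of 20 other settings, 1 of them without sham replicate 6. Gpx3 minus Gpx6, a gene known from the olfactory lining, came to -0.23 (exact permutation test, adjusted p = 0.033). Of 14 other settings of the pair test, Gpx1 with Gpx3 passed in 10. Gpx2 with Gpx3 passed in 7 of them, and Gpx3 with Gpx6 likewise in 7. Gpx4, which protects membranes from lipid peroxidation, differed by 0.09 ± 0.08 SE (adjusted p = 0.497). The secreted enzymes Gpx3 and Sod3 had negative log2 fold changes, and Gpx1 and Sod2 inside cells had positive ones. Those of Sod2 and Sod3 passed the test and those of Gpx1 and Gpx3 did not. The other members of these families, Sod1 (0.05), Gpx2 (0.18), Gpx4 (0.09) and Gpx6 (0.009), did not pass. This grouping was made after the values were seen, and a link to the place of the enzyme was not tested.

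In the thioredoxin system the mitochondrial thioredoxin fell while the cytosolic reductase rose. Txnrd1, the selenoenzyme that recycles thioredoxin in the cytosol, ran from 0.036 to 0.12 with a median of 0.078 in LID ganglia, against -0.27 to -0.036 with a median of -0.13 in sham ganglia. The LID ganglia were close together (SD 0.031) and the sham ganglia more spread (SD 0.086), without overlap. Txnrd1 rose 1.16-fold (95% interval 1.08 to 1.24, log2 fold change 0.21 ± 0.05 SE, adjusted p = 0.00505). Its mitochondrial counterpart Txnrd2 differed by -0.04 ± 0.06 SE, and the responses of the 2 reductases differed by 0.26 on the log2 scale (exact permutation p = 0.00216, adjusted p = 0.0264). Txn2, the mitochondrial thioredoxin, ran from -0.23 to -0.015 with a median of -0.089 in LID ganglia, against 0.015 to 0.28 with a median of 0.18 in sham ganglia, again without overlap. It fell by 0.27 ± 0.05 SE on the log2 scale (adjusted p = 0.00376), the smallest adjusted p among the members. Txn1, the cytosolic thioredoxin, differed by 0.07 ± 0.05 SE (adjusted p = 0.357), and its response differed from that of Txn2 by 0.34 on the log2 scale (exact permutation p = 0.00216, adjusted p = 0.0264).

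Among mitochondrial members Sod2 was higher and Txn2 lower in LID, while Prdx3 and Txnrd2 did not pass the test. Txndc9, a thioredoxin-domain protein that binds a chaperone of tubulin and actin folding, fell by 0.22 ± 0.06 SE on the log2 scale (adjusted p = 0.0208), from -0.31 to 0.0059 in LID ganglia, against -0.009 to 0.17 in sham ganglia. This call was lost without sham replicate 3 (adjusted p = 0.0764) and without both replicates 2. Txnip, which binds thioredoxin and blocks it, differed by 0.16 ± 0.08 SE (adjusted p = 0.191). It passed in 1 of 20 other settings, without sham replicate 6 (adjusted p = 0.0296). The remaining 9 thioredoxin-like and glutaredoxin members did not pass and lay between -0.24 and 0.03. Among them were Glrx3, and Glrx and Glrx2, which restore thiols bound to glutathione. Of the 15 members of this role 1 rose (6.67%) and 2 fell (13.3%), near the 7.66% and 11.7% of all probesets.

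**Figure D3:**
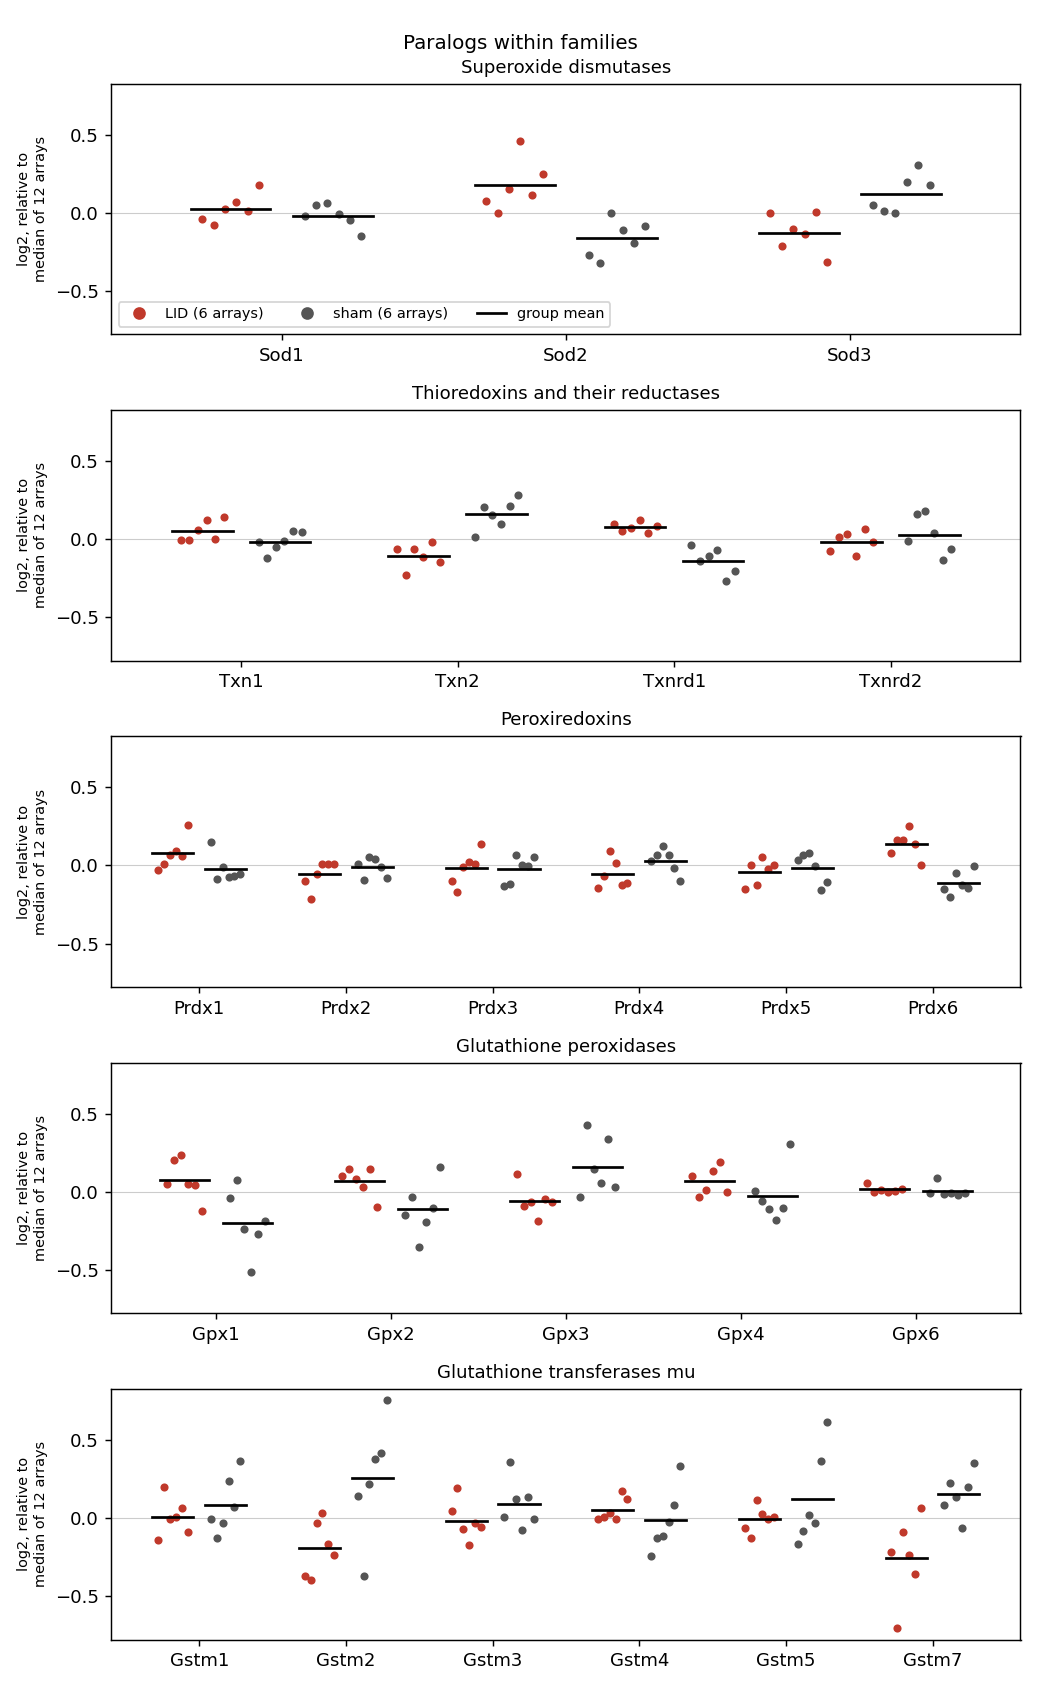
Values of each array (log2, with the median over 12 arrays set to 0) for 5 families of related genes, LID in red on the left and sham in gray on the right of each gene, with a line for each group mean. Sod2 and Txnrd1 lie higher in LID while Sod3 and Txn2 lie lower, and in the mu family Gstm7 is lower in LID whereas Gstm4 overlaps.

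Of the 4 genes for making and recycling glutathione 1 fell and 0 rose. Gclm, the modifier subunit of glutamate-cysteine ligase, the enzyme that sets the rate of glutathione synthesis, ran from -0.60 to 0.018 with a median of -0.19 in LID ganglia, against -0.028 to 0.30 with a median of 0.16 in sham ganglia. LID replicate 2 was far below the rest, and 2 LID ganglia lay within the sham range. Gclm fell by 0.36 ± 0.10 SE on the log2 scale (adjusted p = 0.0228), but the call was lost without LID replicate 1, sham replicate 3 or sham replicate 4 (adjusted p up to 0.0549). Without LID replicate 2 its log2 fold change was -0.29 (adjusted p = 0.0342). The catalytic subunit Gclc differed by -0.11 ± 0.05 SE (adjusted p = 0.163), and the 2 subunits were not told apart (difference 0.26, exact permutation test, adjusted p = 0.106). Gss, which adds glycine in the last step of synthesis, differed by -0.05 ± 0.07 SE (adjusted p = 0.746). Gsr, the reductase that regenerates glutathione from its oxidized form, differed by 0.06 ± 0.06 SE (adjusted p = 0.564).

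Of 14 glutathione transferases, which join glutathione to electrophiles, 3 fell (21.4%, against 11.7% of all probesets) and 0 rose, with 2 fold changes above 0 and 12 below it on the log2 scale (85.7%, against 58.0% of all probesets). No test was made of these shares. Gstm7, of the mu class, ran from -0.70 to 0.064 with a median of -0.23 in LID ganglia, against -0.064 to 0.35 with a median of 0.16 in sham ganglia. LID replicate 2 was lowest by a wide margin and 1 LID ganglion, replicate 6, lay inside the sham range. Gstm7 fell by 0.41 ± 0.11 SE on the log2 scale (adjusted p = 0.0186), with fold changes from -0.48 to -0.32 when 1 array was left out. Gstm2 had a difference of -0.45 ± 0.15 SE, further from 0 than that of Gstm7, but with a wider spread (SD 0.174 in LID and 0.373 in sham) it did not pass (adjusted p = 0.0521), and it passed under 6 of 20 other settings. Gstm4 differed by 0.07, and its log2 fold change minus that of Gstm7 was 0.48 (exact permutation test, adjusted p = 0.0264). Gstm2 minus Gstm4 came to -0.52 (exact permutation test, adjusted p = 0.033).

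Gstt1, of the theta class, ran from -0.16 to -0.0079 with a median of -0.14 in LID ganglia, against 0.0079 to 0.28 with a median of 0.072 in sham ganglia. The groups did not overlap, and sham replicate 2 was highest. Gstt1 fell by 0.21 ± 0.05 SE on the log2 scale (adjusted p = 0.0115). Gsto1, of the omega class, which reduces dehydroascorbate, fell by 0.13 ± 0.04 SE (adjusted p = 0.0423), a call lost in 14 of 20 other settings and in 10 of 12 with 1 array left out (adjusted p up to 0.128). Mgst1, the microsomal transferase, differed by -0.19 ± 0.06 SE (adjusted p = 0.0568), and Gstp1, the pi class enzyme, by 0.02 ± 0.05 SE. The 6 mu genes lie in a run of 9 protein-coding genes of the rat genome, the 2 theta genes in a run of 4 and the 2 omega genes side by side, by the order of genes in RefSeq. Such genes are close in sequence, and whether array probes for one also read another was not tested, so values of single transferases are uncertain.

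Nfe2l2 itself and its partner Keap1 did not pass the test, nor did Hmox1 and Nqo1 among its target genes. Of the members past the test that held the sequence TGACNNNGC, Sod2 and Txnrd1 rose, and Gclm, Gstm7 and Hmox2 fell. Whether NRF2 had a part in any of these was not tested. Nfe2l2 differed by 0.03 ± 0.06 SE (95% interval -0.10 to 0.16, adjusted p = 0.817), and its values spread more in LID ganglia (SD 0.142) than in sham ganglia (SD 0.0217). Keap1 differed by -0.05 ± 0.06 SE (adjusted p = 0.622). Hmox1, the inducible heme oxygenase, which frees iron and carbon monoxide from heme, ran from -0.11 to 0.44 with a median of 0 in LID ganglia, against -0.16 to 0.33 with a median of 0.0058 in sham ganglia.

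The 2 groups covered much the same range for Hmox1, with a difference of 0.04 and an interval from -0.19 to 0.26 (adjusted p = 0.879). The interval leaves room for a change in either direction, and it is not a limit of what the test could detect. Nqo1, a quinone reductase, differed by -0.13 ± 0.08 SE (adjusted p = 0.325), and Nqo2 by -0.37 ± 0.14 SE (adjusted p = 0.0962). Hmox2, the constitutive heme oxygenase of neurons, ran from -0.21 to 0.017 with a median of -0.087 in LID ganglia, against -0.019 to 0.34 with a median of 0.21 in sham ganglia. Of the sham ganglia only replicate 1 fell among the LID values. Hmox2 fell by 0.29 ± 0.06 SE on the log2 scale (adjusted p = 0.0067). Its response was not told apart from that of Hmox1 (difference 0.33, exact permutation test, adjusted p = 0.118). Hmox2 minus Hmox3 came to -0.29 (exact permutation test, adjusted p = 0.033). Whether array probes for Hmox3 also read Hmox2 was not tested. Mt3, the metallothionein of the nervous system, which binds zinc and copper, differed by -0.18 ± 0.07 SE (adjusted p = 0.0783).

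**Figure D4:**
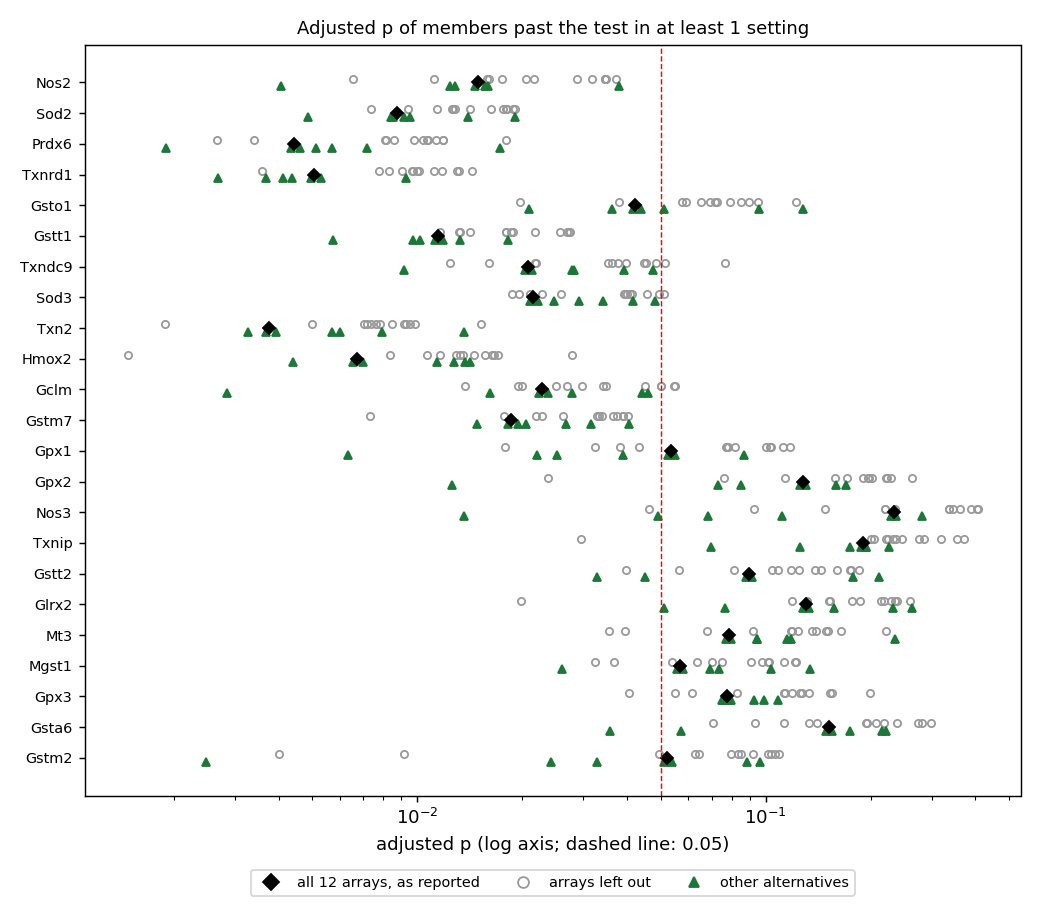
Adjusted p (log axis) of the 23 members past the test in at least 1 setting, for all 12 arrays (black), with arrays left out (open circles) and under other alternatives in the calculation (green). Points of 8 genes stay left of the dashed line at 0.05, whereas Gsto1, Txndc9, Sod3 and Gclm cross it.

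Of the 12 members past the test, 8 passed in each of 20 alternative settings (Nos2, Sod2, Prdx6, Txnrd1, Gstm7, Gstt1, Txn2 and Hmox2), as the plot of adjusted p by setting shows. The other 4 were Gclm, Gsto1, Txndc9 and Sod3. Of the 48 members not past the test, 37 passed in no setting and 11 passed in at least 1.

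Genes that feed or border the same pathways were also counted. Their lists were made with earlier results of these data known, so the shares below are descriptions. Of 117 listed genes for NADPH supply, glutathione transport, oxidant production, heme and iron, NRF2 partners, selenoproteins and nitric oxide, 70 were measured, of which 12 rose (17.1%, against 7.66% of all probesets) and 5 fell (7.14%, against 11.7%), with a median log2 fold change of 0.02. Past 1.5-fold were 5 (7.14%, against 2.99%), all higher in LID. Cybb, the catalytic subunit of the phagocyte NADPH oxidase, rose 3.38-fold (95% interval 2.36 to 4.84, adjusted p = 0.000358) and Rac2, the GTPase that activates it, 1.97-fold (1.63 to 2.37). Xdh, which makes superoxide and urate from xanthine, rose 1.89-fold (1.68 to 2.14, adjusted p = 1.93e-05). Cp, the copper ferroxidase ceruloplasmin, rose 2.39-fold (1.98 to 2.88), and Anpep, a membrane peptidase that splits the dipeptide left by glutathione breakdown, 1.70-fold (1.30 to 2.21).

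By group, 4 of 11 oxidant-producing genes rose and 0 fell, and 2 of 8 genes of NADPH supply rose (Nampt and Nadk). Of all probesets 7.66% rose and 11.7% fell, and no group was tested against these shares. A count of 1 among 8 to 13 genes is near them. Of 9 genes of glutathione transport and turnover 2 rose, and of 9 NRF2 partners and stress sensors 1 did, the small Maf protein Mafk. Iron handling was mixed, with Cp higher and the iron exporter Slc40a1 and the iron sensor Aco1 lower among 12 genes. Of 8 genes for selenoproteins 1 rose and 2 fell. Around nitric oxide, the arginine transporter Slc7a2 rose by 0.27 and the arginase Arg2, which competes for arginine, fell by 0.28 on the log2 scale, among 13 genes.

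Markers of other cells moved with the groups. All 11 measured of 16 listed macrophage and monocyte markers were higher in LID, among them Cybb, and their mean on an array ran from 0.23 to 0.92 in LID ganglia, against -1.04 to -0.11 in sham ganglia. Of 7 T and NK cell markers 3 were higher, namely Nkg7, Klrk1 and Prf1, genes of NK and cytotoxic cells. The T cell markers Cd3d, Cd2 and Cd8a, and also Gzmb, did not pass (log2 fold changes 0.04 to 0.24). The mean of the 7 per array was 0.096 to 0.49 in LID, against -0.35 to -0.045 in sham. Neutrophil markers were higher in 1 of 4 (-0.096 to 0.25 in LID, against -0.24 to 0.12 in sham). Of all probesets 7.66% were higher and 11.7% lower. Of 7 satellite glia markers 1 was higher and 2 lower (-0.13 to 0.074 in LID, against -0.17 to 0.065 in sham). No marker passed among 13 for sensory neurons, 7 for Schwann cells, 4 for fibroblasts, 2 for endothelium and 1 for red blood cells. Their part in the changes of Nos2, Sod2, Prdx6, Txnrd1 and the lower members was not tested, and in whole ganglia fewer cells of a type and less RNA per cell cannot be told apart.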

How the data were processed

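RNA of 12 L5 ganglia was hybridised to 1 array each. According to the study's methods the authors summarised core probesets with RMA16 in GeneSpring and quantile normalized them; the deposited log2 values are centred on the median of the 12 arrays for each probeset, as the values themselves show. Scale and direction were settled from the fold changes the study lists, which were not otherwise used. The labels give build rn4. Of 8260 probesets 7603 carried 1 symbol, 409 several and 248 none, and symbols were brought up to date with RefSeq (GRCr8), which held 59 of the 60 members. RNA came from 1 of 2 kits, with the kit of each sample not given in the sources used here, so it cannot be checked.

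LID and sham were compared with limma 3.58.1 in R 4.3.3 (6 arrays each, two-sided, Benjamini-Hochberg over all probesets, no covariate), tested first on simulated data. No filter on dim probes was possible, and the number of arrays limits the precision. Pair tests, counts and figures used Python 3.11.15, numpy 2.4.6, pandas 2.3.3, scipy 1.17.1 and matplotlib 3.10.9. Named were all members past the test, a list of well-known members, and related genes past the test and 1.5-fold. Other genes, among them Prdx and Gst members, Nqo2, Nox3, Nox4, Nampt, Nadk, Mafk, Slc40a1, Aco1, Slc7a2 and Arg2, were named after their values were seen. Members, lists and the motif were chosen with earlier results of these data known, and the pair test and its alternatives were added after the values were seen. The labels number the replicates without saying that the numbers pair the samples, so the main comparison did not pair them.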

Additional observations from a re-analysis of the deposited data

Results flagged for a closer look

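In 8 of 120 sets of 6 arrays (60 members in 2 groups), 1 array stood far from the other 5 of its group, and chance gives about 1 in 20 such sets. Sham replicate 2 accounts for 4 of them. It lay at 0.5362 for Nox3, with the other sham arrays from -0.14 to 0.085, at 0.4208 for Txndc8 (others -0.014 to 0.046), at 0.08853 for Gpx6 (others -0.019 to -0.0051) and at -0.4154 for Glrx3 (others -0.041 to 0.055). LID replicate 1 lay at 0.2428 for Txnip (other LID arrays -0.0013 to 0.053) and at 0.05436 for Gpx6 (others -0.00074 to 0.016). LID replicate 2 lay at -0.2849 for Txnl4b (others -0.066 to 0.06), and sham replicate 1 at 0.1509 for Prdx1 (other sham arrays -0.087 to -0.011). None of these genes passed the test between groups, and none of the 12 members past the test was among them.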

How the results depend on the processing

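Across 20 alternatives none of the 12 members past the test changed direction. Counting members higher and lower in LID gave 4 and 8 as reported, 7 and 12 with array quality weights, 5 and 8 after a further quantile normalization, 5 and 7 with array medians subtracted, and 6 and 9 with the replicate number as a block. With 1 array left out, members higher in LID ranged from 4 to 6 and members lower from 5 (without sham replicate 3 or sham replicate 4) to 10, and Nos2 stayed the only member past 1.5-fold. Over all probesets, 926 were higher and 1238 lower with array weights, 675 and 1005 with the replicate block, and 495 to 700 higher and 766 to 951 lower with 1 array left out. Same-numbered samples correlated at -0.15 to 0.40, and 3 of 12 arrays correlated best with their own number, so the block is a value only. The number of paralog pairs past the test was 13, 15 after a further quantile normalization, 0 to 19 with 1 array left out and 0 without both replicates 2. Without both replicates 2 only 252 assignments exist and the smallest exact p is 0.00794. Among members not past the test 12 changed sign somewhere. With array weights Glrx3 gave -0.024, Hmox3 0.049, Nfe2l2 -0.0091, Nox3 0.0089, Prdx3 -0.015, Txndc2 0.05004, Txndc8 0.0053 and Txnl1 -0.027. After a further quantile normalization Hmox3 gave 0.041 and Txndc2 0.018, and with array medians subtracted Hmox3 gave 0.015 and Txndc2 0.013. Without both replicates 2, Glrx-ps4 gave 0.0047, Hmox3 0.041, Nfe2l2 -0.019 and Txndc2 0.014. With 1 array left out Glrx3 ranged from -0.044 to 0.078, Gstp1 from -0.011 to 0.039, Hmox1 from -0.039 to 0.10, Hmox3 from -0.0395 to 0.041, Nfe2l2 from -0.018 to 0.054, Nox3 from -0.11 to 0.021, Prdx3 from -0.026 to 0.035, Txndc2 from -0.055 to 0.034, Txnl1 from -0.021 to 0.031 and Txnl4b from -0.082 to 0.013. The cause of these changes was not tested.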
